A study of Homo sapiens with 12 samples.

Results

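The genes described here encode factors that start, carry forward and end protein synthesis, or regulators and relatives of those factors, with an antisense transcript. They were taken from the count table by symbol: names beginning with EIF1 to EIF6, EEF1 or EEF2, together with ETF1 and GSPT1, without EIF1AY, and with at least 10 counts in 3 or more of the 12 libraries. Of 72 symbols with such names, 61 met the count requirement, out of 26334 genes in the table, and all 61 passed the filter on low counts and were tested. The other 11 had at most 3 counts in any library. Just outside the requirement, the antisense transcript EIF1B-AS1 had a third-highest count of 2. Just inside it stood the antisense transcript EIF3J-AS1 with 42, EIF4E3 with 78 and EIF5AL1 with 94. EIF4A1, EIF3C and EIF3CL were listed at 0 in all 12 libraries. Of the genes named for the eIF4A helicase, EIF4A2 and EIF4A3 are measured, and the eIF3c subunit is not. EIF4A3 is counted by its name, and its part in initiation was not tested. EIF4A1 is abundant in most cells, and what lies behind these listed zeros was not tested.

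The libraries came from shA673-1c, a derivative of the human Ewing sarcoma line A673 in which doxycycline induces a short hairpin RNA against the EWS::FLI1 fusion. All 12 libraries shared 1 µg per ml doxycycline for 4 days, in medium that also held blasticidin and zeocin, so no library represents cells without the hairpin induced. Actinomycin D, which blocks transcription, was then added at 5 µM, and polyadenylated RNA was sequenced at 0, 1, 2 and 4 h with 3 biological replicates each. The cells are 1 engineered line, and the comparisons ask how the level of each mRNA moved relative to the other mRNAs once synthesis had stopped.

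Initiation begins when eIF2, bound to GTP, brings the initiator tRNA to the small ribosomal subunit, helped by eIF1, eIF1A, eIF5 and the many-subunit eIF3. The mRNA is recruited through its cap by eIF4E, which sits on the scaffold eIF4G with the helicase eIF4A, and 4E-binding proteins hold eIF4E back. Start codon recognition releases GDP-bound eIF2, the exchange factor eIF2B recharges it, and kinases that phosphorylate the alpha subunit of eIF2 block that exchange. In elongation eEF1A delivers aminoacyl-tRNAs, the eEF1B subunits recharge eEF1A, and eEF2 moves the ribosome along. Several of these mRNAs, like those of ribosomal proteins, are known to begin with a C followed by a run of pyrimidines, through which their translation is controlled.

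That start tract can be seen in the sequences at the transcription start. RefSeq promoter windows (GRCh38.p14) matched 49 of the 61 genes. A start tract was counted where the RefSeq start base was C and at least 5 C or T bases stood in a row from it, read on the coding strand only. It was present in 11 of 49 genes (22.4%), against 4.04% of all 27305 promoters of the same length, 5.49% of the 9625 promoters of genes tested, and 43 of 63 (68.3%) of the matched cytosolic ribosomal protein genes. Allowing the run to begin within 5 bases of the annotated start raised these shares to 36.7%, 21.1%, 22.8% and 81%. The following windows run from 60 bases before the start to 25 bases from it, 5′ to 3′, with the tract in capitals; they show 4 tract genes that stood higher at 4 h and the 1 that stood lower.
EEF1A1, chr6:73521008-73521092, minus strand: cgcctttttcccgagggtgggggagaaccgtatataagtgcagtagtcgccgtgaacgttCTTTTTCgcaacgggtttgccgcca
EEF2, chr19:3985439-3985523, minus strand: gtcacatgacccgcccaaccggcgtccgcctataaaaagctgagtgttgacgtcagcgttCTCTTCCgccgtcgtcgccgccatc
EIF3F, chr11:7987277-7987361, plus strand: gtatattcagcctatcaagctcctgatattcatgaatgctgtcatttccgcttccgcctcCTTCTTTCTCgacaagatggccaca
EIF3K, chr19:38619128-38619212, plus strand: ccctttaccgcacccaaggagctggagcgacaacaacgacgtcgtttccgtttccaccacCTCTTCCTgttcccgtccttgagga
EIF4B, chr12:53006396-53006480, plus strand: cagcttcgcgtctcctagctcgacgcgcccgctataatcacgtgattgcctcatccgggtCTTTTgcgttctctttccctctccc
A tract was absent from 38 of the 49 matched genes, including EEF1B2, EIF3I and EIF5A, which were called higher at 4 h. The 3 genes with the steepest falls were also among those without a tract. Their windows have the same layout, the start base is an A in each, and none carries capitals.
EIF1AD, chr11:66002133-66002217, minus strand: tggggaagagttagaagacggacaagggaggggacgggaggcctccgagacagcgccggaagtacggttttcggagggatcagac
EIF4ENIF1, chr22:31489818-31489902, minus strand: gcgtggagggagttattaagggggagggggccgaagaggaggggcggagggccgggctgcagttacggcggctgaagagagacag
EIF5, chr14:103334177-103334261, plus strand: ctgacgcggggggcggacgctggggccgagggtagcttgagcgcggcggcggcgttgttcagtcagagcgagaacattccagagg

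The 12 libraries held 9381855 to 10929000 counts each, and the share that fell to the 61 genes was 1.94% ± 0.0401 before actinomycin D and 1.96% ± 0.0744 after 4 h (SD, n = 3 each). The second principal component, with 15.9% of the variance against 59% on the first, set replicate 3 apart from the other replicates. FLI1, which supplies the DNA-binding part of the fusion, stood at 20.5 ± 1.05 counts per 1000000 counts of the library (CPM) at 0 h and at 7.42 ± 0.639 at 4 h (SD, n = 3 each), and since every library had the hairpin induced, its level does not check the knockdown. The Ewing sarcoma surface marker CD99 was listed at 0 in all 12 libraries. The other markers chosen for the line were detected at 0 h. EWSR1 had 236 ± 28.9 CPM, NR0B1 4.57 ± 0.288 and NKX2-2 1.57 ± 0.217 (SD, n = 3 each). Of 9 markers of blood, epithelium, liver and endothelium, 7 stayed at or below 0.467 CPM on average, with CD3E at 0. The exceptions were HBB, with 22.6 ± 4.35 CPM at 0 h and 10.6 ± 3.73 at 4 h, and PECAM1, with 2.28 ± 0.637 and 3.03 ± 0.333 (SD, n = 3 each). HBB fell by 1.10 on the log2 scale (adjusted p = 0.00631, edgeR quasi-likelihood test), and the part of these marker transcripts in the results was not tested. Fewer cells of a kind and less RNA per cell cannot be told apart in such bulk libraries.

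At 4 h the translation factors divided into a few that fell steeply and a majority that moved little. By edgeR's quasi-likelihood test with Benjamini-Hochberg adjustment over all 12775 genes tested, 8 genes were lower and 20 higher at an adjusted p under 0.05, and 33 were not called. Over all genes tested the same calls took 24.6% lower and 23.3% higher. The 3 genes that fell more than 2-fold were EIF4ENIF1, EIF1AD and EIF5, and EIF2AK3 fell 1.79-fold. Over all genes 17.8% were called lower by more than 1.5-fold and 11.4% by more than 2-fold. The steepest rise, of EEF1D, was 1.48-fold, and 38 of the 61 log2 changes were smaller than 0.3 in size. The median log2 change was 0.12 over the 61 genes and 0.05 over all genes tested. The 3 libraries at 4 h lay wholly below those at 0 h for 8 genes and wholly above for 22, where 27.5% and 27.9% of all genes tested separated in that way.

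Levels are relative to the library, and the number of genes called depended on the scale. CPM here were computed on totals scaled by TMM, edgeR's trimmed mean of M values, and the table held no spike-in. With plain library totals 12 of the 61 genes were lower and 9 higher (all genes, 31% and 10.5%). Scaled to the summed counts of the cytosolic ribosomal proteins, 31 were lower and 1, EEF1D, was higher (45.8% and 1.2%). The median of all genes at 4 h was then -0.32, against 0.05 with TMM and -0.10 with library totals. All 8 genes called lower with TMM were lower and called on each of these scales, whereas 16 of the 20 called higher had a negative sign with ribosomal protein scaling, the exceptions being EEF1D, EIF3K, EEF1B2 and EEF1A2. Every "higher" that follows is on the TMM scale and carries that limit. With the replicate number as a block, 8 genes were lower and 34 higher (all genes, 30.8% and 34.8%). The 14 called higher at 4 h by the block alone were EIF1AX, EIF5B, EIF2A, EIF2S1, EIF2S3, EIF2AK1, EIF2AK4, EIF3B, EIF3D, EIF4A2, EIF4H, ETF1, GSPT1 and EIF5AL1.

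**Figure D1:**
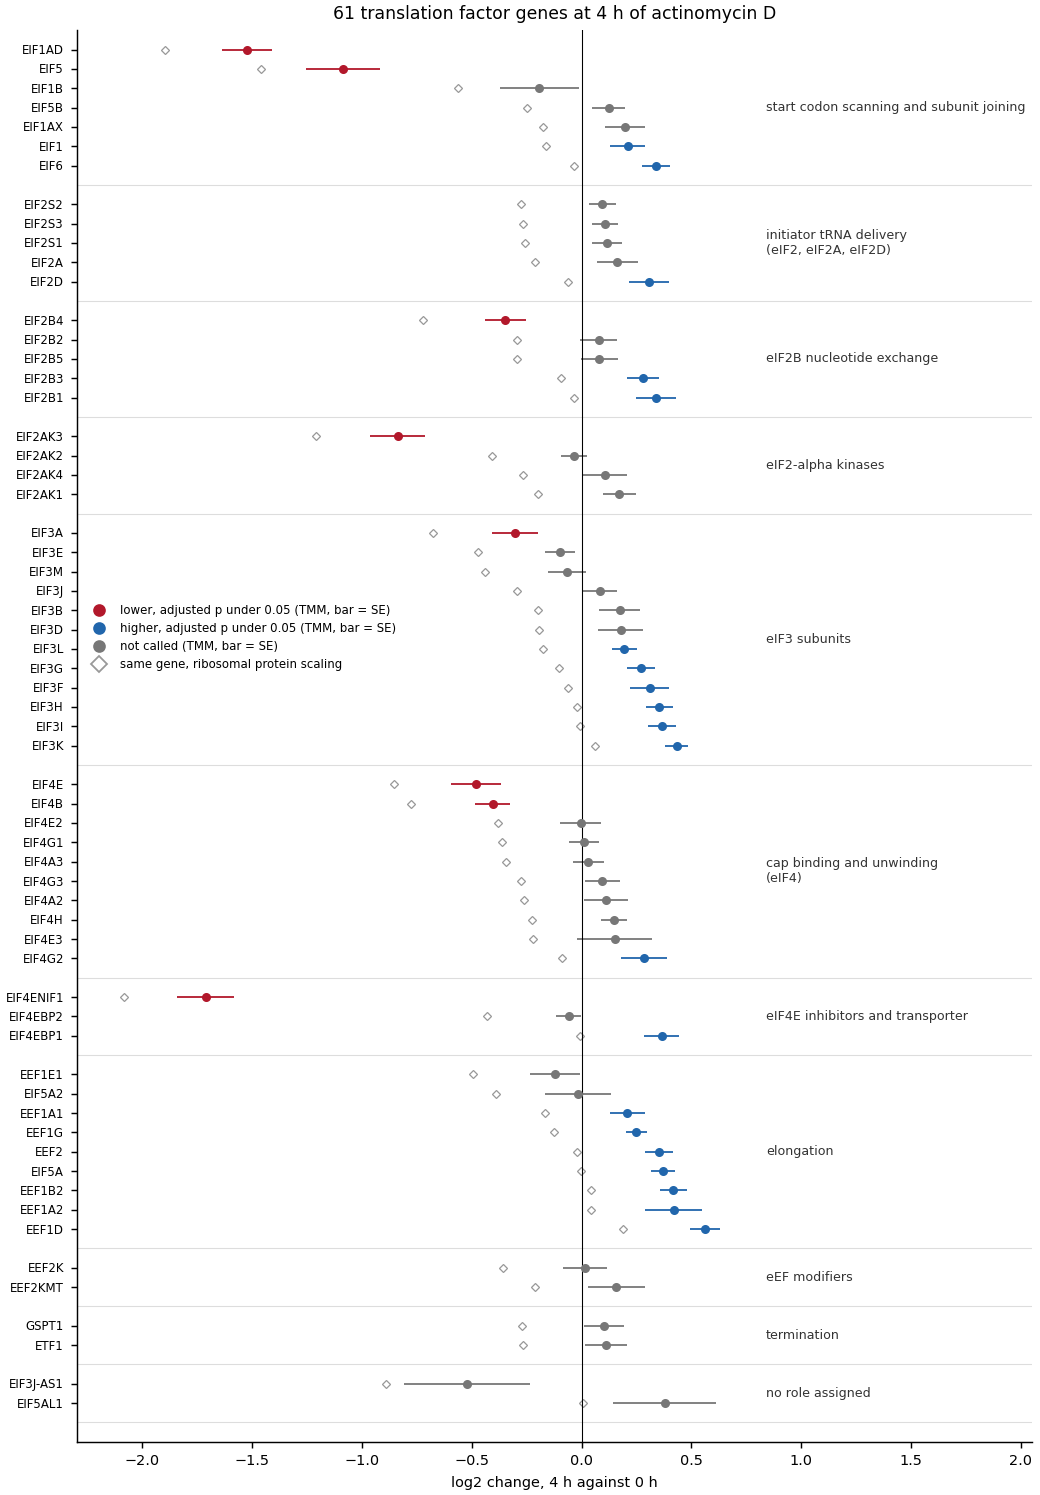
Log2 change at 4 h against 0 h of actinomycin D for the 61 translation factor genes, grouped by role; filled points are TMM-scaled edgeR estimates with bars of 1 standard error, coloured by call, and open diamonds give the same gene with ribosomal protein scaling. EIF4ENIF1, EIF1AD, EIF5 and EIF2AK3 lie far to the left on both scales, and most filled points right of 0 have a diamond left of it.

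EIF4ENIF1 encodes 4E-T, which binds eIF4E, carries it into the nucleus and holds it in processing bodies. Its level was 22.1, 22.4 and 20.9 CPM at 0 h in replicates 1, 2 and 3, 20.3, 18.9 and 16.1 at 1 h, 11.95, 12.04 and 12.56 at 2 h, and 6.80, 7.63 and 5.51 at 4 h. All 3 libraries at each of 2 h and 4 h lay below every library of the time before. The log2 change was -0.84 ± 0.12 (SE) at 2 h (adjusted p = 0.000347, edgeR) and -1.71 ± 0.13 at 4 h (adjusted p = 3.28e-07, edgeR), a 3.27-fold fall.

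EIF1AD encodes a protein with an eIF1A-like domain. It had 52.0, 51.3 and 45.1 CPM at 0 h, 37.3, 38.4 and 36.0 at 1 h, 25.3, 24.3 and 22.4 at 2 h, and 20.5, 14.6 and 16.5 at 4 h. The libraries of the 4 times did not overlap, and the step from 2 to 4 h was smaller than that from 0 to 2 h. The log2 change was -1.04 ± 0.11 (SE) at 2 h and -1.52 ± 0.11 at 4 h (adjusted p = 2.89e-05 and 2.82e-07, edgeR), or 2.87-fold lower at 4 h.

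EIF5 encodes the protein that makes eIF2 hydrolyse its GTP when the start codon is met. Its libraries had 434, 489 and 417 CPM at 0 h, 414, 420 and 342 at 1 h, 351, 361 and 249 at 2 h, and 249, 226 and 157 at 4 h. Replicate 3 was the lowest at each time, and every replicate fell at each step. The log2 change was -0.48 ± 0.17 (SE) at 2 h, and -1.09 ± 0.17 at 4 h (adjusted p = 0.000187, edgeR), or 2.13-fold lower. The call at 2 h depended on the setting. The adjusted p was 0.0743 by edgeR as reported, against 9.81e-08 with the replicate block, 0.0415 with DESeq2, 0.0362 with library totals and 0.0195 with ribosomal protein scaling, all with EIF5 lower.

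EIF2AK3 encodes PERK, the kinase that phosphorylates eIF2 alpha when unfolded proteins build up in the endoplasmic reticulum. It had 20.0, 19.7 and 20.9 CPM at 0 h, 16.6, 15.3 and 19.3 at 1 h, 15.6, 15.1 and 17.9 at 2 h, and 9.97, 10.9 and 13.0 at 4 h. All libraries at 4 h lay below all at 0 h, with replicate 3 the highest at every time. The log2 change at 4 h was -0.84 ± 0.13 (SE; adjusted p = 0.000149, edgeR).

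The other 4 genes that fell did so by less than 1.5-fold. EIF4E, the cap-binding protein, had 28.4, 31.8 and 28.2 CPM at 0 h, 28.2, 34.0 and 24.8 at 2 h and 21.3, 21.1 and 20.9 at 4 h. EIF4B, which stimulates the eIF4A helicase, had 299, 294 and 293 CPM at 0 h, 305, 300 and 279 at 2 h and 244, 230 and 195 at 4 h. Both mRNAs were near their starting level at 2 h, with log2 changes of -0.02 for EIF4E and -0.004 for EIF4B, and stood lower at 4 h, by -0.48 ± 0.12 for EIF4E and -0.41 ± 0.08 for EIF4B (SE; adjusted p = 0.00399 and 0.00103, edgeR).
EIF2B4, the delta subunit of the exchange factor eIF2B, had 60.9, 60.1 and 49.8 CPM at 0 h and 49.5, 43.4 and 41.4 at 4 h, a log2 change of -0.35 ± 0.09 (SE; adjusted p = 0.00735, edgeR). EIF3A, the largest subunit and scaffold of eIF3, had 526, 537 and 473 CPM at 0 h and 436, 457 and 352 at 4 h, a log2 change of -0.30 ± 0.11 (SE; adjusted p = 0.0322, edgeR). The call of EIF3A did not hold without the 0 h library of replicate 1 (adjusted p = 0.0895), without that of replicate 2 (0.0996) or without the 4 h library of replicate 3 (0.127).

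**Figure D2:**
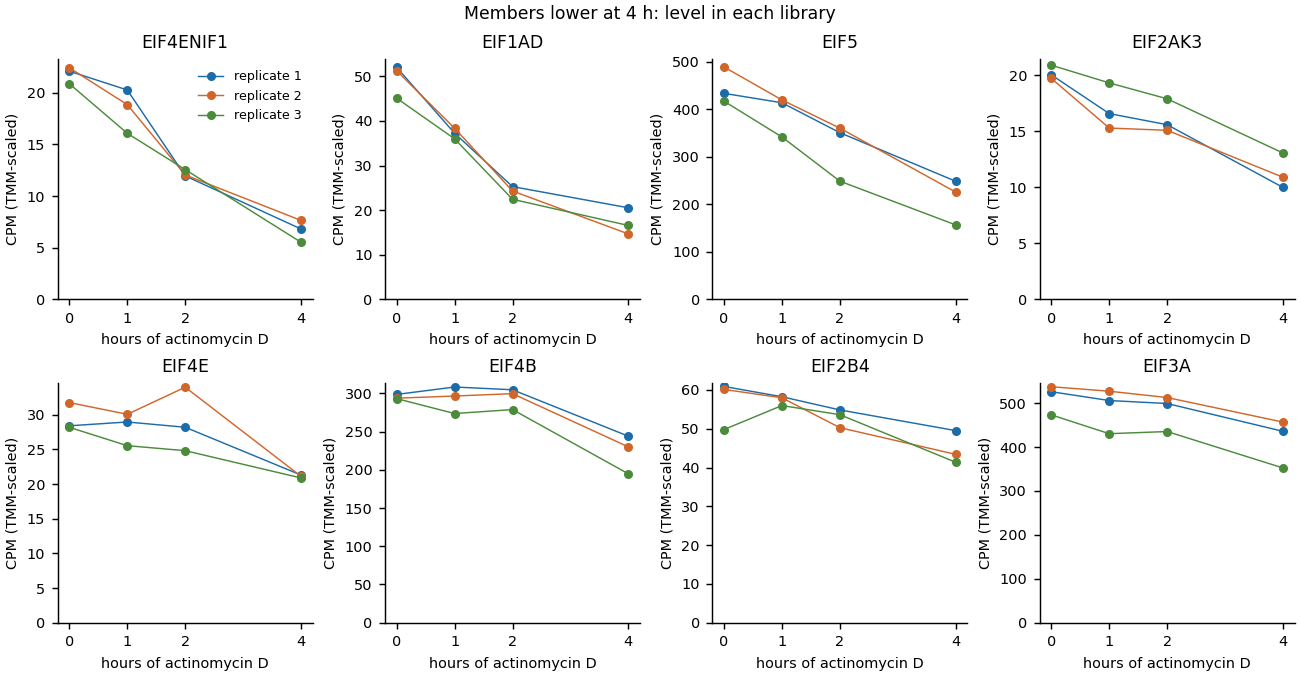
CPM on TMM-scaled totals against hours of actinomycin D for the 8 genes called lower at 4 h; each line is 1 replicate and each axis starts at 0. EIF1AD and EIF4ENIF1 fall from the start, EIF5 falls in every replicate, and EIF4E and EIF4B hold their level to 2 h and stand lower at 4 h.

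At earlier times few of these genes passed the test. At 1 h none of the 61 was called in either direction by edgeR, where 1.16% of all genes tested were lower and 0.172% higher; 1 member was lower at an unadjusted p under 0.05 and 0 were higher, and DESeq2 called 1 lower and 0 higher (all genes, 1.42% and 0.313%). At 1 h the libraries lay wholly below those of 0 h for 4 members and wholly above for 1 (all genes, 9.55% and 4.45%). With the replicate block, EIF1AD (log2 change -0.41, adjusted p = 0.000255) and EIF5 (-0.20, adjusted p = 0.0347) were lower at 1 h (all genes, 6.28% lower and 2.52% higher). At 2 h EIF1AD and EIF4ENIF1 were lower and EEF1B2 and EIF3H, named after its value was seen, were higher, against 11.7% and 3.39% of all genes. EEF1B2 rose by 0.22 ± 0.06 and EIF3H by 0.23 ± 0.06 on the log2 scale (SE; adjusted p = 0.0237 and 0.0234, edgeR). With the block 5 were lower (EIF1AD, EIF4ENIF1, EIF5, EIF2AK3 and EIF3J-AS1) and 25 higher at 2 h (all genes, 19.5% and 15.9%). With library totals 0 were higher (all genes, 1.12%), and 0 also with ribosomal protein scaling (0.196%). The 2 h libraries lay wholly below those of 0 h for 4 members and wholly above for 15 (all genes, 18.3% and 13.3%).

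The change of rate compares the log2 change from 2 to 4 h with that from 0 to 2 h. No member was called by edgeR, where 0.227% of all genes were negative and 0.384% positive; at an unadjusted p under 0.05 5 were negative and 5 positive, and DESeq2 called 0 in either direction (all genes, 0.532% and 0.603%). With the replicate block 7 were negative and 5 positive (all genes, 5.46% and 7.39%). The negative ones, with relatively more loss or less gain in the later interval, were EIF4E (-0.43, adjusted p = 0.0459), EIF4B (-0.40, 0.000829), EIF2AK2 (-0.36, 0.0121), EIF3M (-0.33, 0.000626), EIF3E (-0.31, 0.0206), ETF1 (-0.24, 0.0158) and GSPT1 (-0.19, 0.043). The positive ones were EIF1AD (0.56, 0.0146), EEF2 (0.34, 0.00137), EIF4EBP1 (0.33, 0.0154), EEF1D (0.31, 0.0154) and EIF6 (0.28, 0.00633). EIF2AK2, EIF3M, EIF3E and EIF6 were named here after their values were seen.

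Of the 7 genes grouped under scanning and subunit joining, EIF1AD and EIF5 fell and 2 rose. EIF1AD is known here only by its eIF1A-like domain, and whether it acts in scanning was not tested. Counts by role here and below stand against 24.6% lower and 23.3% higher over all genes tested. With the replicate block those shares were 30.8% and 34.8%. EIF1, which guards start codon choice, had 214, 214 and 194 CPM at 0 h and 254, 223 and 243 at 4 h, a log2 change of 0.21 ± 0.08 (SE; adjusted p = 0.0442, edgeR) that became -0.16 with ribosomal protein scaling. The call of EIF1 was lost without any 1 of 10 libraries (adjusted p from 0.051 to 0.201), all but the 1 h library of replicate 3 and the 4 h library of replicate 2, and also in DESeq2 (adjusted p = 0.0898). EIF6, which keeps the large ribosomal subunit from joining too early, rose 1.26-fold. EIF5B, which promotes joining, EIF1AX and EIF1B were not called. The median log2 change of the 7 was 0.12.

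Of the 5 factors that bring the initiator tRNA, 1 rose and 4 were not called, with log2 changes from 0.10 to 0.31. EIF2S1, the alpha subunit of eIF2 that the kinases phosphorylate, had 211, 223 and 198 CPM at 0 h and 223, 239 and 223 at 4 h. The groups overlapped, and the log2 change of 0.12 ± 0.07 (SE) was not called (adjusted p = 0.174, edgeR). EIF2S3, the gamma subunit that binds GTP and the tRNA, changed by 0.11 ± 0.06 (SE; adjusted p = 0.153, edgeR). With the replicate block both passed the threshold, and with library totals both had a negative sign (-0.03 and -0.04), as they did with ribosomal protein scaling (-0.26 and -0.27). EIF2D, which can place the initiator tRNA without eIF2, had 47.2, 40.9 and 41.9 CPM at 0 h and 56.7, 49.4 and 55.0 at 4 h. Its groups did not overlap and it rose by 0.31 ± 0.09 on the log2 scale (SE; adjusted p = 0.014, edgeR), against -0.06 with ribosomal protein scaling. That call did not hold without the 0 h library of replicate 2 (adjusted p = 0.0722) or of replicate 3 (0.0605), or without the 4 h library of replicate 1 (0.0545).

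The 5 subunits of eIF2B did not move together. EIF2B4 fell, EIF2B1 (alpha) and EIF2B3 (gamma) rose by 1.27-fold and 1.21-fold, and EIF2B2 (beta) and EIF2B5 (epsilon, the catalytic subunit) were not called. EIF2B3 had 43.6, 47.2 and 42.0 CPM at 0 h and 53.6, 54.2 and 53.6 at 4 h, with no overlap (log2 change 0.28 ± 0.07 SE, adjusted p = 0.00618, edgeR); the sign turned to -0.09 with ribosomal protein scaling, and the call ended without all of replicate 3 (adjusted p = 0.0522).

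Of the 4 eIF2 alpha kinases, EIF2AK3 fell and the other 3 were not called. EIF2AK1, the kinase that senses heme, had 149, 136 and 155 CPM at 0 h and 169, 156 and 169 at 4 h, a log2 change of 0.17 ± 0.07 (SE; adjusted p = 0.0755, edgeR). It passed the threshold with the replicate block and was -0.20 with ribosomal protein scaling. EIF2AK2 (PKR, which binds double-stranded RNA) and EIF2AK4 (GCN2, which senses uncharged tRNA) changed by -0.04 and 0.10.

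The 12 measured subunits of eIF3 had 1 fall and 6 rises (all genes, 24.6% and 23.3%), and 5 genes were not called. The median was 0.19 and the range ran from -0.30 to 0.43. EIF3A was the one that fell. EIF3K had 117, 109 and 111 CPM at 0 h, 125, 118 and 123 at 2 h, and 151, 152 and 152 at 4 h, a rise of 0.43 ± 0.05 on the log2 scale (SE; adjusted p = 2.04e-05, edgeR). EIF3I, a subunit built as a WD40 propeller, had 320, 293 and 289 CPM at 0 h and 407, 386 and 370 at 4 h, a rise of 0.37 ± 0.06 (SE; adjusted p = 0.000408, edgeR) that was -0.01 with ribosomal protein scaling. Neither gene's groups overlapped. The other rises were EIF3H, EIF3F, EIF3G and EIF3L, from 1.15-fold to 1.28-fold. EIF3B, EIF3D, EIF3E, EIF3J and EIF3M were not called. With the replicate block 8 of the 12 were higher and 1 lower (all genes, 34.8% and 30.8%).

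Cap binding and unwinding of the leader were taken as a group of 10 eIF4 genes placed by name, EIF4A3 among them. EIF4E and EIF4B fell, EIF4G2 rose and 7 were not called. EIF4G1, the scaffold of the cap-binding complex, had 742, 725 and 680 CPM at 0 h and 759, 715 and 687 at 4 h. Its groups overlapped almost fully, and its log2 change of 0.01 ± 0.07 (SE; adjusted p = 0.918, edgeR) had a negative sign with DESeq2 (-0.01), library totals (-0.14) and ribosomal protein scaling (-0.36). EIF4G2, a relative of eIF4G that lacks the eIF4E-binding part, had 911, 963 and 799 CPM at 0 h and 1104, 1180 and 970 at 4 h. All 4 h libraries lay above all at 0 h, for a rise of 0.28 ± 0.11 (SE; adjusted p = 0.0425, edgeR), which DESeq2 did not call (adjusted p = 0.0582) and which was -0.09 with ribosomal protein scaling. The call of EIF4G2 was also lost without any 1 of 9 libraries (adjusted p from 0.0507 to 0.191), all but the 1 h and 4 h libraries of replicate 3 and the 2 h library of replicate 2. EIF4A2, a helicase, had 394, 433 and 363 CPM at 0 h and 432, 467 and 387 at 4 h (0.11 ± 0.10 SE, adjusted p = 0.381, edgeR), and passed the threshold with the block.

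Among the 3 regulators that bind eIF4E itself, EIF4ENIF1 fell while EIF4EBP1 rose and EIF4EBP2 was not called (-0.06). EIF4EBP1, the 4E-binding protein released from eIF4E when mTORC1 phosphorylates it, had 85.8, 79.1 and 84.2 CPM at 0 h, 94.2, 77.4 and 80.4 at 2 h and 114, 101 and 105 at 4 h. The 4 h libraries lay above all others, and the rise was 0.36 ± 0.08 on the log2 scale (SE; adjusted p = 0.00258, edgeR), against -0.01 with ribosomal protein scaling.

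Of the 9 genes grouped under elongation, 7 were higher on the TMM scale and 0 lower (all genes, 23.3% and 24.6%). The median of the 9, at 0.35, was the highest of any role group. Per kilobase of a GENCODE transcript, which only approximates the isoforms counted, EEF1A1 was at 1020 ± 51.2 CPM at 0 h, EEF2 at 715 ± 35.6, EEF1G at 624 ± 15.8, EIF5A at 412 ± 15.0 and EEF1B2 at 347 ± 8.97 (SD, n = 3 each).
EEF1A1, the main carrier of aminoacyl-tRNA, had 4786, 4443 and 4356 CPM at 0 h and 5661, 5283 and 4755 at 4 h. The lowest library at 4 h lay within the range at 0 h, which held for no other gene of the 20 called higher. Its log2 change was 0.21 ± 0.08 (SE; adjusted p = 0.046, edgeR), DESeq2 gave an adjusted p of 0.0668, and ribosomal protein scaling gave -0.17. Without any 1 of 9 libraries EEF1A1 was not called (adjusted p from 0.0536 to 0.181), the exceptions being 0 h replicate 1 and the 1 h and 4 h libraries of replicate 3. EEF1A2, its relative known from muscle and neurons, had 19.8, 26.8 and 20.7 CPM at 0 h and 30.7, 32.3 and 26.9 at 4 h; the groups only just separated, and the log2 change was 0.42 ± 0.13 (SE; adjusted p = 0.0182, edgeR). EEF1A2 was not called without the 0 h library of replicate 1 (adjusted p = 0.077) or 3 (0.0684), or without the 4 h library of replicate 1 (0.0506) or 2 (0.0712).
The subunits that recharge eEF1A rose with little spread. EEF1D had 276, 262 and 286 CPM at 0 h, 314, 294 and 292 at 2 h and 406, 413 and 399 at 4 h, a rise of 0.56 ± 0.07 (SE; adjusted p = 2.58e-05, edgeR). EEF1B2 had 373, 377 and 392 CPM at 0 h, 419, 449 and 465 at 2 h and 506, 517 and 502 at 4 h, a rise of 0.42 ± 0.06 (SE; adjusted p = 9.94e-05, edgeR). Most of the gain of EEF1D came after 2 h, while EEF1B2 stood higher by 2 h already.
EEF2, the translocase, had 2165, 2238 and 2386 CPM at 0 h, 2369, 2248 and 2207 at 2 h and 2975, 2809 and 2873 at 4 h. It was level until 2 h and rose by 0.35 ± 0.06 by 4 h (SE; adjusted p = 0.000548, edgeR), or -0.02 with ribosomal protein scaling. EIF5A, which helps ribosomes through proline stretches, had 648, 617 and 604 CPM at 0 h and 826, 808 and 782 at 4 h, a rise of 0.37 ± 0.05 (SE; adjusted p = 0.000111, edgeR), or -0.002 with ribosomal protein scaling. EEF1E1, a member of the multisynthetase complex, and EIF5A2, the rarer relative of EIF5A, were not called.

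**Figure D3:**
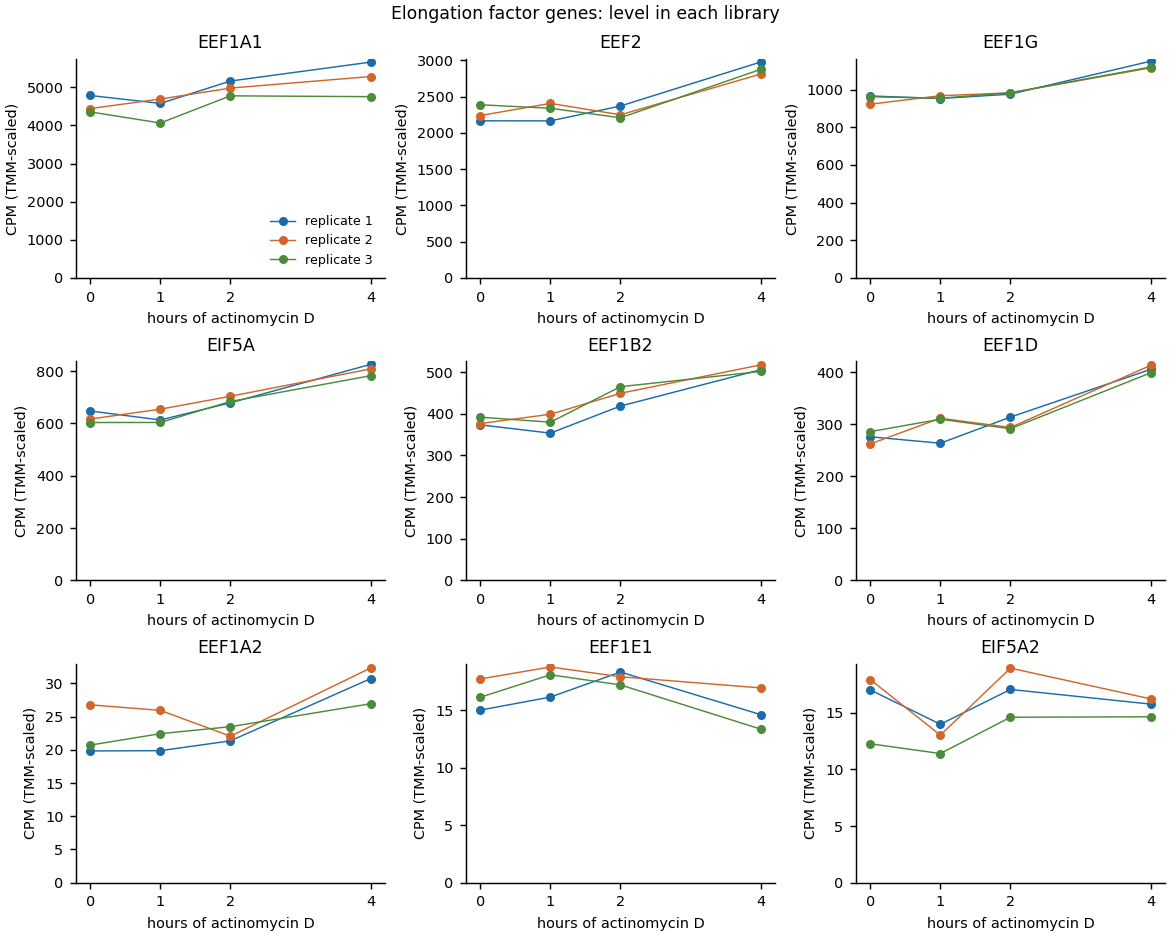
CPM on TMM-scaled totals against hours of actinomycin D for the 9 elongation genes; each line is 1 replicate and each axis starts at 0. EEF1D, EEF2, EIF5A, EEF1B2 and EEF1G stand higher at 4 h in all 3 replicates, while EEF1E1 and EIF5A2 overlap between 0 and 4 h.

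The factors that modify eEF2 and those that end translation were not called. EEF2K, the kinase that switches eEF2 off, changed by 0.01 ± 0.10 and EEF2KMT, which methylates eEF2, by 0.16 ± 0.13 (SE; adjusted p = 0.918 and 0.343, edgeR). For termination, ETF1 (eRF1, which reads stop codons) had 301, 311 and 269 CPM at 0 h and 330, 336 and 285 at 4 h, and GSPT1 (eRF3a, its GTPase partner) had 399, 418 and 364 and then 450, 440 and 379. Both changed by about the same amount, 0.11 and 0.10, with overlapping groups and adjusted p of 0.374 and 0.373 (edgeR), and both passed the threshold with the replicate block, where EIF4A2, EIF2S1, EIF2S3 and EIF2AK1 did too. EIF3J-AS1, antisense to EIF3J, and EIF5AL1, a near copy of EIF5A, had the widest errors at 4 h of the 61 genes, and reads shared with their partner genes could not be told apart. EIF3J-AS1 had 3.97, 2.55 and 4.76 CPM at 0 h and 2.04, 2.82 and 2.97 at 4 h. Its log2 change was -0.67 ± 0.29 at 2 h and -0.52 ± 0.28 at 4 h (SE; adjusted p = 0.151 each, edgeR). With the block EIF3J-AS1 was called lower at 2 h (adjusted p = 0.0313) but not at 4 h (0.0603), and with ribosomal protein scaling it was called lower at 4 h (0.021). EIF5AL1 had 7.46, 5.37 and 6.79 CPM at 0 h and 12.1, 6.38 and 7.11 at 4 h, so that the groups overlapped. Its log2 change was 0.42 ± 0.23 at 2 h and 0.38 ± 0.23 at 4 h (SE; adjusted p = 0.277 and 0.205, edgeR). With the block EIF5AL1 was called higher at both times (adjusted p = 0.0335 and 0.0426).

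Ratios of 2 members within a library do not depend on scaling, and 9 pairs were compared between 0 and 4 h. An exact two-sided permutation test of 3 against 3 cannot give a p below 0.1, so no pair can pass 0.05. The EIF2AK3 to EIF2AK4 ratio was 0.108, 0.112 and 0.136 at 0 h and 0.0489, 0.0586 and 0.0794 at 4 h. The EIF4E to EIF4E2 ratio was 0.323, 0.354 and 0.334 and then 0.238, 0.230 and 0.264, and EIF4E2 is a cap-binding relative that represses. The EIF4G1 to EIF4G2 ratio was 0.815, 0.753 and 0.851 and then 0.688, 0.606 and 0.709. The EIF5A to EIF5A2 ratio went the other way, from 38, 34.4 and 49.1 to 52.2, 49.7 and 53.3. In these 4 pairs the groups did not overlap (log2 differences -0.95, -0.47, -0.27 and 0.37, exact permutation p = 0.1 each, 0.225 after adjustment over 9 pairs). In the other 5 pairs the groups overlapped, with exact permutation p from 0.2 to 0.8. Within replicate numbers, which pair the libraries, 4 of those 5 also moved one way in 3 of 3 replicates. EIF4G1 to EIF4G3 (mean log2 difference -0.09 ± 0.02), EEF1A1 to EEF2 (-0.15 ± 0.07) and EEF1A1 to EEF1A2 (-0.22 ± 0.19) were lower at 4 h, and EIF1 to EIF1B (0.41 ± 0.34) was higher (SD of 3 paired differences). An exact two-sided sign-flip test of 3 pairs cannot give a p below 0.25, which each of these 4 pairs and the 4 above gave. ETF1 to GSPT1 moved both ways, at 0.746 and 0.75 with a log2 difference of 0.007.

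**Figure D4:**
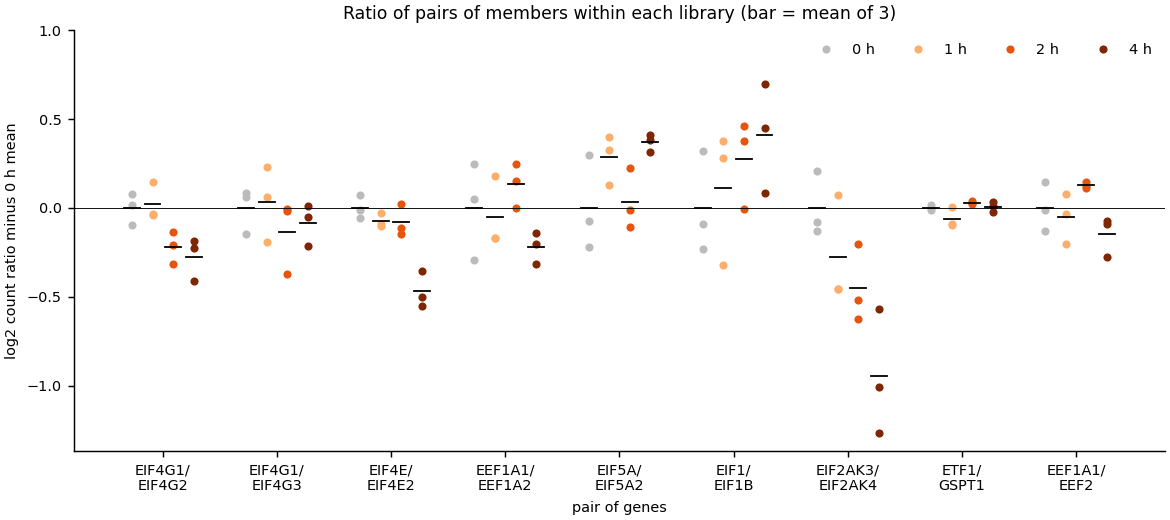
Log2 ratio of the counts of 2 translation factor genes within each library, minus the mean at 0 h, for 9 pairs at 0, 1, 2 and 4 h; points are libraries and bars are means of 3. EIF2AK3/EIF2AK4 and EIF4E/EIF4E2 lie below their 0 h points at 4 h, and ETF1/GSPT1 stays within a narrow band.

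The start tracts printed above were set beside the changes at 4 h. Of the 11 genes with a tract, 5 were called higher (EEF1A1, EEF2, EIF2D, EIF3F and EIF3K), 1 lower (EIF4B) and 5 were not called (EIF2A, EIF2S3, EIF3D, EIF3M and EIF4A2). As shares of the matched genes, a tract stood in 5 of 14 called higher, 1 of 7 called lower and 5 of 28 not called. The median log2 change was 0.18 over the 11 genes with a tract and 0.10 over the 38 without; 2 of the 11 and 12 of the 38 were below 0. Tracts were in 4 of 7 matched eIF3 genes and 2 of 7 matched elongation genes. EIF4B, whose tract is the shortest at 5 bases, fell at 4 h, and no match says only that these letters do not stand at the annotated start.

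**Figure D5:**
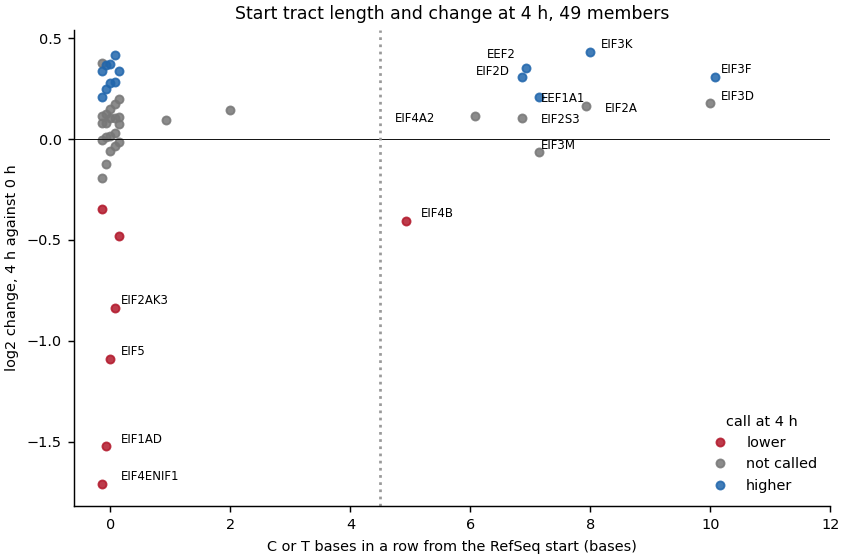
Length of the C or T run from a starting C, in bases and with a small sideways offset to part the points, against the log2 change at 4 h for the 49 genes with a RefSeq promoter; colours give the call and the dotted line the minimum of 5 bases. Right of the line EIF4B is the only gene called lower, and EIF4ENIF1, EIF1AD, EIF5 and EIF2AK3 all sit at 0 bases.

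The 3′ untranslated regions, from GENCODE release 29, differed in length between the calls. A single transcript stood for each gene, chosen by GENCODE's principal-isoform tag, then the longest coding sequence, then the longest transcript. Its 3′ region need not be that of the mRNAs counted. The median was 2020 bases over the 8 genes called lower, 1380 over 32 not called and 363 over the 20 called higher. Over the genes tested the medians ran in the same order at 1676, 1188 and 710 bases. Of those genes 11672 had a matched transcript, and the shares over all genes tested given next refer to them. The pentamer ATTTA stood in 6 of 8, 26 of 32 and 10 of 20 of these regions (75%, 81.2% and 50%), against 82.1%, 72.2% and 56.8% over all genes tested, and longer regions hold more by length alone. Within the last 300 bases of regions longer than 300, it stood in 2 of 7, 14 of 28 and 6 of 11 (28.6%, 50% and 54.5%). Over all genes tested the last-300-base shares ran the other way, from 54.5% of those called lower through 51.7% to 42.1% of those called higher. With 7 and 11 translation factor genes in the outer classes, this difference in order was not tested. EIF4ENIF1, with the steepest fall, had no ATTTA in its 513 bases, while EIF1AD had 3 in 2054 and EIF5 had 5 in 3973.

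Other genes of the translation apparatus moved as follows at 4 h, where 23.3% of all genes tested were called higher and 24.6% lower. Of 77 cytosolic ribosomal protein genes tested, 74 were higher and 1 lower, with a median log2 change of 0.37, near that of the elongation factors. With the replicate block 75 of these ribosomal protein genes were higher and 1 lower (all genes, 34.8% and 30.8%). Of 23 genes for cytosolic aminoacyl-tRNA synthetases and their scaffold proteins, 8 were higher and 2 lower (median 0.17). VARS, which charges valine tRNA, rose by 0.42 ± 0.06 (SE), and the falls were RARS, for arginine, with -0.35 ± 0.12, and AIMP2, a scaffold of the synthetase complex, with -0.32 ± 0.11 (adjusted p = 0.000138, 0.0281 and 0.0287, edgeR). With the replicate block 17 synthetase genes were higher and 2 lower (all genes, 34.8% and 30.8%).
Of 45 tested regulators of translation, 11 were higher and 8 lower (all genes, 23.3% and 24.6%), with a median of -0.001. The replicate block gave 13 higher and 11 lower (all genes, 34.8% and 30.8%). The largest falls among the regulators exceeded those among the factors themselves, while RPTOR, LARP4 and RICTOR fell 1.42-fold, 1.34-fold and 1.3-fold. PELO, which rescues stalled ribosomes, went from 68.4 ± 3.06 to 9.02 ± 0.623 CPM (SD, n = 3 each), 7.57-fold lower. GSPT2, the close relative of GSPT1, went from 17.7 ± 1.07 to 4.28 ± 0.319 CPM (SD, n = 3 each), 4.12-fold lower, while GSPT1 was not called. PPP1R15A and PPP1R15B, which direct the phosphatase that removes the phosphate from eIF2 alpha, fell 3.82-fold and 2.66-fold, alongside the kinase gene EIF2AK3. LARP4B, which binds poly(A)-binding protein, fell 2.35-fold. Among the rises, TSC2, which restrains mTORC1, was 1.52-fold higher and PABPC1, the main cytoplasmic poly(A)-binding protein, 1.27-fold higher.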

How the data were processed

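Polyadenylated RNA of 12 libraries (0, 1, 2 and 4 h, 3 biological replicates each) was, per the labels' protocols, sequenced from stranded TruSeq mRNA libraries. The authors deposited raw counts, 1 value per gene symbol and library. The submitters' processing notes name FastQC, STAR and hg19 and give no version. The counting program, annotation and strand setting are not given in the sources used here, so reads of near-identical or overlapping genes may have been split or shared.

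Counts were fitted in R 4.3.3 with edgeR 4.0.16 (filterByExpr by time, 12775 genes, TMM, quasi-likelihood test on all 12 libraries) and adjusted by Benjamini-Hochberg over all genes, at a threshold of 0.05. Each SE was derived from the log2 change and its quasi-likelihood F (|log2 change| over the root of F), and CPM use TMM-scaled totals of 8831366 to 11515691, from library totals of 9381855 to 10929000 counts. The procedure was also run on simulated counts with independent libraries and few genes changed at 4 h. That run had no paired replicates and did not test the choice of scale. Ratios of 2 genes used counts plus 0.5. Alternatives were DESeq2 1.42.0, library totals, scaling to ribosomal proteins, no low-count filter, the replicate block, a ratio pseudocount of 5, leaving out each library and, added after seeing the data, leaving out all of replicate 3 and a sign-flip test of the paired ratios.

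Same-numbered libraries deviated together from their group means (correlations 0.369 to 0.494, 0.263 to 0.336 and 0.575 to 0.649 for replicates 1, 2 and 3, against -0.501 to 0.16 between numbers), so the labels' numbers pair the libraries. Blocked counts are given for the 61 genes and for the other gene lists. By role they are given for eIF3 only, and the 14 genes that the block added at 4 h are named. Replicates were not duplicates (chi-square per degree of freedom 4.13 to 15.2).

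Members and lists were chosen with earlier results of these data known. Genes given with full values were 12 core factors chosen by name, up to 10 of the largest falls (8 were called) and the 6 largest rises among those called at 4 h with at least 5 CPM, and the 2 smallest adjusted p per role; other members are named in counts or pairs, chosen after their values were seen. Promoters came from RefSeq (GRCh38.p14) and 3′ regions from GENCODE release 29, by symbol, and no position on hg19 is given.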

Additional observations from a re-analysis of the deposited data

How the results depend on the processing

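The 8 genes called lower at 4 h kept their sign under every alternative run and their call in all but 3, each of which left out 1 library and lost 1 gene, EIF3A. Counts moved more. At 1 h the number lower was 0 as reported, 1 with DESeq2, 2 with the replicate block and 0 to 1 with a library left out. At 2 h the number lower was 4 with ribosomal protein scaling and 5 with the block, and the number higher was 0 with library totals, with ribosomal protein scaling and without replicate 3, 1 without the low-count filter, 25 with the block and 0 to 2 with a library left out. At 4 h ribosomal protein scaling gave 31 lower and 1 higher, library totals gave 9 higher, the block gave 34 higher, and leaving out a library gave 13 to 22 higher; 13 came without the 0 h library of replicate 3 and without the 4 h library of replicate 1. For the change of rate the block gave 7 negative and 5 positive against 0 and 0.

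Some signs turned at 4 h, and those listed here are only for the genes that the rule above gave full values. Other members also turned with ribosomal protein scaling and with library totals. With ribosomal protein scaling log2 changes became -0.364 for EIF4G1, -0.359 for EEF2K, -0.271 for GSPT1, -0.267 for EIF2S3, -0.265 for ETF1, -0.262 for EIF4A2, -0.257 for EIF2S1, -0.214 for EEF2KMT, -0.200 for EIF2AK1, -0.165 for EEF1A1, -0.161 for EIF1, -0.093 for EIF2B3, -0.091 for EIF4G2, -0.064 for EIF2D, -0.021 for EEF2, -0.009 for EIF4EBP1, -0.006 for EIF3I and -0.002 for EIF5A. With library totals they became -0.136 for EEF2K, -0.141 for EIF4G1, -0.048 for GSPT1, -0.044 for EIF2S3, -0.042 for ETF1, -0.038 for EIF4A2 and -0.034 for EIF2S1. With DESeq2 they became -0.005 for EEF2K and -0.011 for EIF4G1. With 1 library left out EEF2K ranged from -0.047 to 0.065 and EIF4G1 from -0.044 to 0.043, and without replicate 3 EIF4G1 was -0.014. Scaling moved the median of all genes, which the alternatives' construction sets. The pair ratios stayed within 1 SD of the reported value under every alternative, but most of these runs could not have shown otherwise. Leaving 1 library out of so small a group shifts its mean by less than 1 SD whatever the values. The block and the sign-flip test give the same mean difference by construction. The larger ratio pseudocount was free to move the ratios further and did not. The replicate block turned no sign and ended no call among the named genes. Counts were lowest for EIF3J-AS1, at 18 to 54 per library, with a standard error of 0.28 at 4 h.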
